A study of Mus musculus with 6 samples.

Results

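The genes described here are the expressed Zfp genes of mouse embryonic stem cells, a set of 155 protein-coding autosomal genes among 55450 gene identifiers and 358 autosomal protein-coding genes with a Zfp symbol. They were chosen by their symbol, Zfp followed by digits only, and by a mean expected count of at least 50 over 6 libraries. The rule set aside Zfp42, Zfp352 and 1 other gene, and 200 Zfp genes lay below the limit. The mean level thus chose the members and is given as a description, whereas the difference between the groups did not enter the rule. Just inside the limit were Zfp184 with a mean of 50.2 counts, Zfp938 with 51.3 and Zfp65 with 51.4. Just outside it were Zfp788 with 49.8, Zfp952 with 49.6 and Zfp748 with 48.2.

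RNA was compared between Hoxd12-/- cells and wild-type cells, with 3 libraries in each group. Per the labels, all 6 libraries came from C57BL6 embryonic stem cells derived from the E3.5 embryo and grown in mES+2i medium, in which inhibitors of MEK and GSK3 keep them naive. Hoxd12 codes for a homeodomain protein best known from limb patterning. Neither clones nor separate cultures are named in the labels. The p-values therefore reflect the variation among these 3 and 3 libraries, possibly only technical variation, and how many knockout lines they come from is not known here.

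Zinc finger proteins of the C2H2 type bind DNA through an array of small zinc-held loops, and the make-up of the array sets which sequence is bound. Many mouse members also carry a KRAB box, which recruits the scaffold protein Trim28 (KAP1) and with it the histone methyltransferase Setdb1, heterochromatin proteins and DNA methylation. In embryonic stem cells such KRAB zinc finger proteins are known for the silencing of transposable elements and for keeping imprints. Their genes arose by repeated duplication and lie in clusters of near copies, and other Zfp genes code for unrelated proteins that share only the finger fold.

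Library totals lay between 5412577 and 6280934 expected counts, and values below are in CPM, the counts divided by the scaled library size. The limit that a count of 0 allows, 3 counts, lay at 0.478 to 0.554 CPM, for counting error only. Hoxd12 had 0 counts in all 6 libraries, so its level could not check the genotype labels at this depth. Knockout replicate 2 stood apart. It held 2.84% of its counts at 5 loci linked to ribosomal RNA (CT010467.1, AY036118, Gm26917, Gm42418 and Lars2), against 0.311% to 0.368% in the other libraries. All 8 embryonic stem cell markers were detected, and their summed level was 8200 to 8722 CPM in the knockout libraries and 8097 to 8723 CPM in the wild-type libraries. Of 7 fibroblast feeder markers, Dcn, Col3a1, Postn and Lum were at 0 in all libraries, and the list summed to 3.59 to 5.39 CPM in the knockout and 6.84 to 8.91 CPM in the wild type. The 5 primitive endoderm markers summed to 5.86 to 11 CPM against 3.42 to 6.46 CPM. The 7 markers of 2-cell-like cells, a rare state in such cultures, summed to 1.85 to 3.03 CPM against 19.7 to 26.2 CPM. The part of these marker differences in the results below was not tested, and in bulk RNA fewer cells of a type and less RNA per cell cannot be told apart.

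The promoters of members in a cluster on distal chromosome 4 are shown first, because this cluster held the largest group of Zfp genes that fell together. RefSeq promoters (GRCm38.p6, 250 bases before to 50 bases after the start) with a start within 1 kb of the GENCODE gene start were found for 9 of the 14 members of this cluster. The longest run of bases that all 9 held before the start was TGGGAAGCTAATTAA. Over all 32851 RefSeq promoters, on either strand, 12 held it, and all 12 are on chromosome 4. Below, 200 bases that end just before the start are given 5′ to 3′ in the direction of the gene, in lower case with this run in capitals. Zfp980 (chr4:145670485-145670684, plus strand) and Zfp982 (chr4:147492217-147492416, plus strand) fell in the knockout, Zfp979 (chr4:147642514-147642713, minus strand) did not pass the test, and Zfp746 (chr6:48086594-48086793, minus strand) rose and belongs to a cluster on chromosome 6.
Zfp980: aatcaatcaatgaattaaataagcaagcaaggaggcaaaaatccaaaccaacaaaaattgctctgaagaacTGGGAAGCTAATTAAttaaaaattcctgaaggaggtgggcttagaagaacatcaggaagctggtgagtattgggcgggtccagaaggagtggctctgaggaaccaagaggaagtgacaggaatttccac
Zfp982: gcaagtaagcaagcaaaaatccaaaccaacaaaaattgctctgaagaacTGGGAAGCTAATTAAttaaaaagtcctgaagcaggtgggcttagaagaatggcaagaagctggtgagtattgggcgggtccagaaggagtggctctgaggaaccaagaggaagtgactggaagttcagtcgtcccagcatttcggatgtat
Zfp979: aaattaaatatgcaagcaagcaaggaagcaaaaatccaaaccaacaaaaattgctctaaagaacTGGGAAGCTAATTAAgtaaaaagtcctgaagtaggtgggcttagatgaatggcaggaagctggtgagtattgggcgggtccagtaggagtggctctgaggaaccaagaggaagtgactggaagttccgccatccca
Zfp746: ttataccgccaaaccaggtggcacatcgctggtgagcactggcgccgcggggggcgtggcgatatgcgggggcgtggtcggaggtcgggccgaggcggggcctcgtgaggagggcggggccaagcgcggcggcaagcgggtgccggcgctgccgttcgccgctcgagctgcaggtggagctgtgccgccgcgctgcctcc
The chromosome 4 promoters resemble each other to differing degrees. Identity was taken without gaps over the overlapping part of the 250 bases before the start. Of shifts of up to 60 bases, the one with the highest identity was used. The identity was 83.8% between Zfp980 and Zfp982, 83.2% between Zfp980 and Zfp979 and 87.9% between Zfp982 and Zfp979. Over all pairs of the 9 promoters the identity ran from 61.1% (Zfp984 and Zfp987) to 98.4% (Zfp600 and Zfp979). Among the 9 matched promoters the run thus stood before Zfp980 and Zfp982, which fell, and otherwise before genes that did not pass the test. The genes of the remaining promoters among the 12 were not looked up. No promoter was matched for Zfp981, Zfp990, Zfp991, Zfp992 and Zfp993, which also fell. The promoter values given here therefore do not describe most of the genes that fell. Over the 9 promoters the GC content of these 250 bases was 36.8% to 43.6%, with 1 to 7 CpG sites. The 5 matched promoters of the chromosome 6 cluster had 50.8% to 74% GC and 11 to 33 CpG sites, and the median over all promoters was 52.4% and 6 sites.

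Motifs were also counted in the 300-base promoters of the 124 members found by symbol, on both strands. The motif CCAAT was in 52.4% of them and in 37.4% of all promoters, and CCGGAAG (an ETS-type site) in 23.4% against 8.86%. AAGATGGC (a YY1-type site) was in 7.26% against 2.75%, GCATGCGC (an NRF1-type site) in 6.45% against 2.71%, and TCTCGCGA in 3.23% against 0.995%. All 9 chromosome 4 promoters held CCAAT and 0 held any of the other 4 motifs. In the chromosome 6 cluster, 3 of 5 promoters held CCAAT and 0 the others. The members are expressed coding genes with 1 promoter each, whereas the background held all RefSeq promoters, expressed or not. These differences are thus not shown to be particular to Zfp genes. A match is a description of the letters and not a bound site.

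Over the whole set, Zfp genes were called changed about as often as other genes, and the changes were small. Of the 155 members, 26 rose and 18 fell in the knockout at an adjusted p below 0.05 (edgeR's quasi-likelihood test, Benjamini-Hochberg adjustment over all 12891 tested genes). The 44 called members are 28.4% of the set. The background was 26.5% of all tested genes, with 12.1% higher and 14.4% lower. Among the 8519 tested autosomal protein-coding genes that reach the same count limit, 31.7% were called, 15.1% higher and 16.6% lower, whereas 16.8% of the members were higher and 11.6% lower. The share of members called thus lay between these backgrounds. The median log2 fold change, knockout against wild type, was 0.09 over the members and 0.02 over all tested genes. Log2 fold changes ran from -0.90 to 0.78, and 0 members changed 2-fold. The summed level of all members did not differ beyond the spread, at 5076 ± 21.5 CPM in the knockout and 5069 ± 31.4 CPM in the wild type (SD, n = 3 each).

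The knockout and wild-type values did not overlap for 73 members, 47.1% of the set, against 39.7% of all tested genes. Among the autosomal protein-coding genes at the same count limit they did not overlap for 3796 of 8519, nearer to the members' share. All 44 called members were among the 73. DESeq2 called 21 members, 8 higher and 13 lower, and all of them were among the 44. Its background was 15.4% of the tested genes with an adjusted p. On log2(TPM + 1) limma called 26, 17 higher and 9 lower, with a background of 14.4%. Without knockout replicate 2, edgeR called 39 members, 22 higher and 17 lower, of which 38 were among the 44. The balance of rises and falls therefore moved with the tool, from 59.1% of calls higher with edgeR to 38.1% with DESeq2 and 65.4% on TPM. A core of 15 members, 6 higher and 9 lower, was called by edgeR and under each of 14 alternatives (other tools, scalings, filters, a length offset and left-out libraries), with the test against a 1.2-fold change not counted. For single genes below, losses of a call with DESeq2, the length offset or TPM are named only in part.

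**Figure D1:**
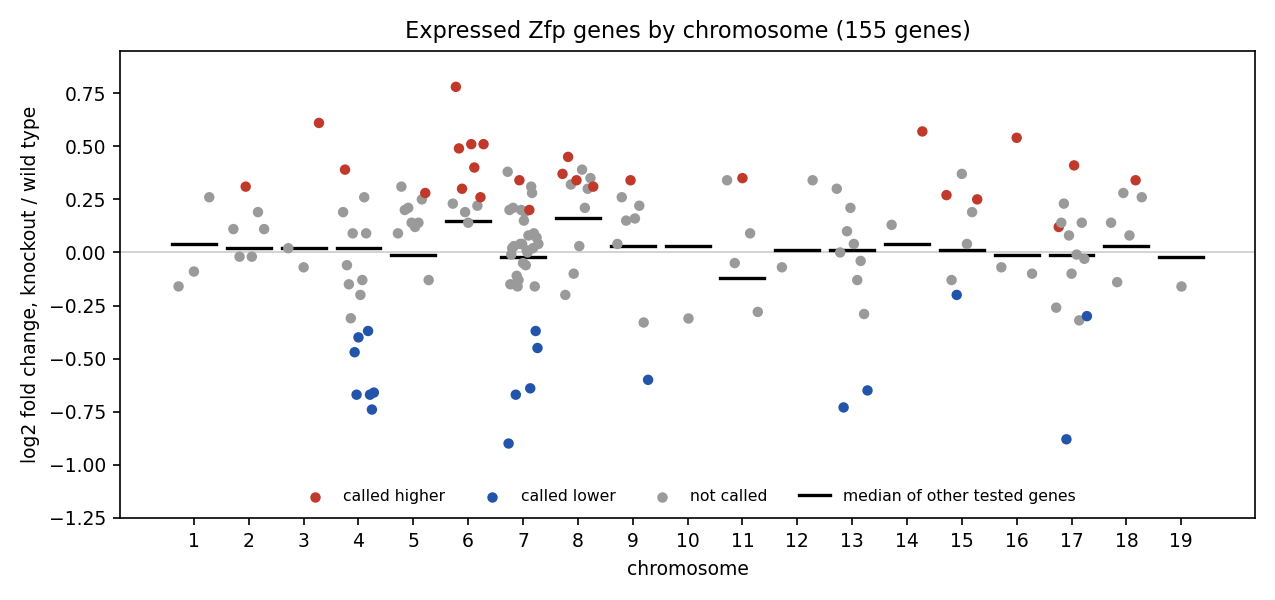
Log2 fold change (knockout against wild type) of each of the 155 expressed Zfp genes, by chromosome. Red and blue points are genes called higher and lower, grey points were not called, and black bars are the median of the other tested genes of that chromosome. The called falls on chromosome 4 all belong to 1 cluster, and all 11 members of chromosome 6 lie above 0.

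By level per length, the most abundant members were Zfp57 (a mean of 164 TPM over all libraries), Zfp706 (150 TPM), Zfp428 (96.6 TPM), Zfp993 (88 TPM) and Zfp638 (72.7 TPM). TPM is the deposited value scaled to transcript length and library size. The rank of Zfp993 rests on a short effective length (the length available to reads), 320 bases in the knockout and 325 bases in the wild type. Its mean was 189.2 counts, where the median member had 126. The effective length of Zfp638 was 1090 and 1041 bases. The order by TPM is thus not the order by count. The median member had 7.42 TPM, the lowest 1.1 TPM, and 56 members reached 10 TPM. Of these 5 genes, Zfp428 and Zfp993 fell, Zfp638 and, narrowly, Zfp57 rose, and Zfp706 had 173, 178 and 163 CPM in the knockout and 169, 166 and 167 CPM in the wild type (log2 fold change 0.04, adjusted p = 0.624). Precision followed the count: the median standard error of the log2 fold change was 0.16 for the 62 members below 100 counts and 0.10 for the 93 others. In the first group 7 were called and in the second 37.

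**Figure D2:**
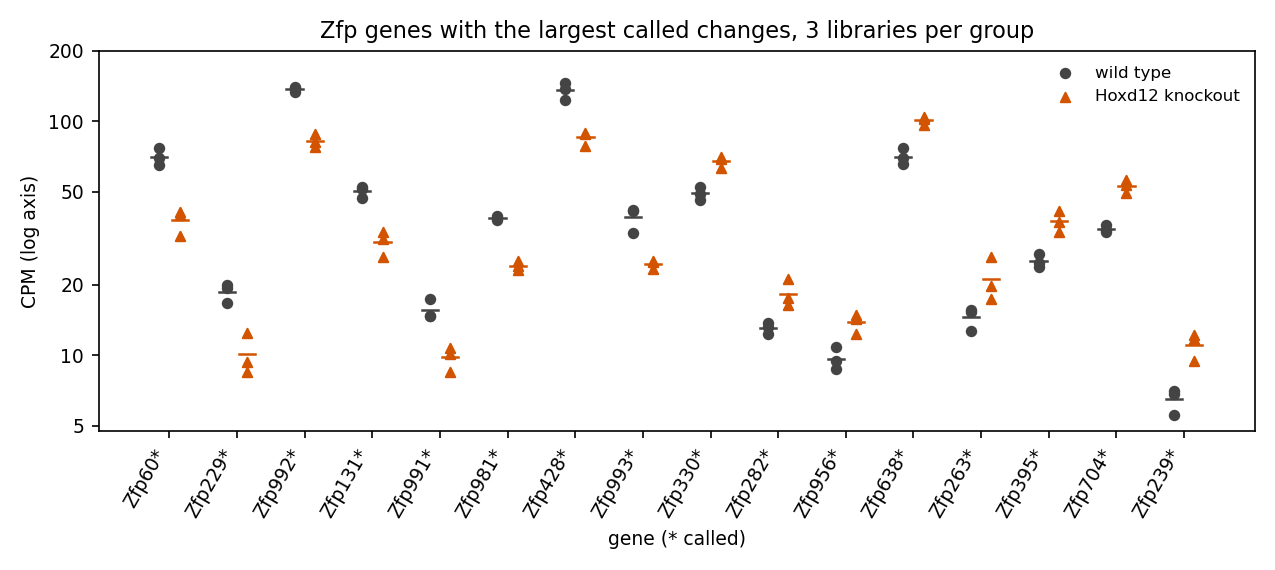
CPM (log axis) of the 8 called members with the largest falls and the 8 with the largest rises, in order of their log2 fold change. Points are single libraries, circles wild type and triangles knockout, and bars are group means. In each of the 16 genes the groups do not overlap.

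The largest falls were in genes of several chromosomes. Zfp60 (ENSMUSG00000037640, chr7:27731389-27753702, GRCm38), a KRAB gene with 19 fingers, had 41, 39.9 and 32.3 CPM in the knockout libraries and 69.5, 65 and 76.5 CPM in the wild-type libraries. All knockout values lay well under the lowest wild-type value, and the log2 fold change was -0.90 ± 0.09 (SE, adjusted p = 1.20e-09). Zfp229 (ENSMUSG00000061544, chr17:21730795-21769342), a KRAB gene with 16 fingers, had 12.5, 8.51 and 9.39 CPM against 16.8, 19.9 and 19.4 CPM. Its log2 fold change was -0.88 ± 0.15 (adjusted p = 3.67e-05). Zfp131 (ENSMUSG00000094870, chr13:119765187-119790889) encodes a transcription factor with a BTB domain and had 26.3, 33.8 and 31.4 CPM against 52.4, 51.5 and 47.1 CPM. It fell by 0.73 ± 0.09 on the log2 scale (adjusted p = 2.34e-07). Its mean effective length, the transcript length available to reads, was 808 bases in the knockout and 614 bases in the wild type, and on log2(TPM + 1) the change was -0.98.

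Zfp428 (ENSMUSG00000064264, chr7:24507006-24515682), with 1 finger by the pattern, had 88.2, 89.4 and 78.5 CPM against 123, 146 and 137 CPM. All 3 knockout libraries were lower, by 0.67 ± 0.06 on the log2 scale (adjusted p = 1.96e-09). The other 4 of the 8 largest falls were Zfp992, Zfp981, Zfp991 and Zfp993, all in the chromosome 4 cluster described below. Each of the 8 kept its call without any 1 library and with DESeq2. On log2(TPM + 1), Zfp991 lost its call (adjusted p = 0.139).

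The largest rises were led by Zfp239 and by a pair of related genes. Zfp239 (ENSMUSG00000042097, chr6:117862100-117873291) had 12.2, 9.45 and 11.7 CPM in the knockout and 5.59, 6.84 and 7.05 CPM in the wild type. These are low levels, and the log2 fold change was 0.78 ± 0.18 (adjusted p = 0.0017). Its mean effective length was 2692 bases in the knockout and 2358 bases in the wild type, and with effective length as an offset the adjusted p was 0.0583. Zfp704 (ENSMUSG00000040209, chr3:9427020-9610085) had 49.6, 56 and 53.4 CPM against 34.2, 33.7 and 35.9 CPM. It rose by 0.61 ± 0.08 (adjusted p = 7.23e-07), with little spread in either group. Zfp395 (ENSMUSG00000034522, chr14:65358389-65398930), of the same small family as Zfp704, had 41.5, 33.7 and 37.1 CPM against 23.8, 27 and 24.9 CPM. It rose by 0.57 ± 0.10 (adjusted p = 6.86e-05).

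Zfp263 (ENSMUSG00000022529, chr16:3744093-3750790) had 17.4, 19.7 and 26.2 CPM against 12.7, 15.6 and 15.3 CPM. The knockout values were widely spread, and the rise of 0.54 ± 0.14 (adjusted p = 0.0054) was not called without knockout replicate 3 (adjusted p = 0.108). Zfp638 (ENSMUSG00000030016, chr6:83867109-83989550) encodes a large nuclear protein that acts in the silencing of retroviral DNA, and it had 104, 102 and 96.7 CPM against 69.5, 76.9 and 65.5 CPM. It rose by 0.51 ± 0.06 (adjusted p = 2.16e-07). Zfp330 (ENSMUSG00000031711, chr8:82763607-82774160), a nucleolar protein with 0 C2H2 fingers by the pattern, had 70.4, 68.8 and 63 CPM against 49.1, 52.6 and 45.9 CPM. It rose by 0.45 ± 0.08 (adjusted p = 2.25e-05). The remaining 2 of the 8 largest rises were Zfp956 and Zfp282, in the chromosome 6 cluster.

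Grouped by position, 16 clusters held at least 3 members and 72 members in all. A cluster here is a run of Zfp genes, expressed or not, with gaps of at most 1 Mb. Inside these clusters 6 members rose (8.33%) and 14 fell (19.4%). Of the 83 members outside them 20 rose (24.1%) and 4 fell (4.82%). The background at the same count limit was 15.1% higher and 16.6% lower. The chromosome 4 cluster holds 7 of the 14 falls inside clusters. The rises outside include Zfp239, Zfp638 and Zfp384 of chromosome 6 and Zfp330, Zfp1, Zfp821 and Zfp961 of chromosome 8. Other genes of these chromosomes were shifted up as well, as given below. The median log2 fold change was 0.03 inside and 0.13 outside. The largest shares of called members were those of the chromosome 4 cluster, 7 of 14, and the chromosome 6 cluster, 4 of 6, and each of the other 14 clusters had 0 to 2 called members.

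The chromosome 4 cluster spans chr4:145510759-147848366 and has 18 annotated Zfp genes, of which 14 are members. In the knockout 7 of them fell and 0 rose, with a median log2 fold change of -0.34. DESeq2 called 6 lower and limma on log2(TPM + 1) called 3 lower, with a median of -0.17 there. The 109 tested genes outside it within 5 Mb had a median of 0.04. All 14 members carry a KRAB box by either of 2 patterns.

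Zfp992 (ENSMUSG00000070605, chr4:146449023-146470292) had 81.6, 88.5 and 77.6 CPM in the knockout and 133, 140 and 139 CPM in the wild type. Its fall of 0.74 ± 0.06 (log2, SE) had the smallest adjusted p of all members, 7.48e-12. Zfp981 (ENSMUSG00000056300, chr4:146502027-146539395) had 24.2, 25.3 and 23.1 CPM against 37.7, 38.6 and 39.4 CPM. In both groups the libraries lay close together, and the log2 fold change was -0.67 ± 0.10 (adjusted p = 2.25e-06). Zfp993 had 23.4, 25.1 and 25.4 CPM against 33.4, 41.5 and 41.9 CPM, a log2 fold change of -0.66 (adjusted p = 9.32e-06). Zfp991 had 10.1, 8.51 and 10.8 CPM against 14.7, 17.4 and 14.8 CPM, a log2 fold change of -0.67 (adjusted p = 0.00117).

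Zfp980 had 66.6, 65.6 and 64.3 CPM against 96.2, 87.9 and 88 CPM (log2 fold change -0.47, adjusted p = 8.58e-07). Zfp990 had 79.9, 87.4 and 77.4 CPM against 98.2, 111 and 106 CPM (log2 fold change -0.37, adjusted p = 3.02e-05). Zfp982 had 16.2, 16.1 and 14.8 CPM against 19.2, 20.7 and 22 CPM (log2 fold change -0.40, adjusted p = 0.0164). The groups did not overlap in these 3 genes, and the call of Zfp982 was lost without knockout replicate 3 (adjusted p = 0.0727) or wild-type replicate 3 (adjusted p = 0.0761) and with DESeq2 (adjusted p = 0.102).

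The other 7 members of the cluster did not pass the test. Zfp979, at 90.9, 95.3 and 85.1 CPM against 86.8, 88.8 and 79.2 CPM, had a log2 fold change of 0.09. Zfp988 had 33, 30.8 and 29.2 CPM against 28.6, 31.1 and 27.3 CPM, also 0.09 on the log2 scale. Their groups overlapped. The log2 fold change was -0.13 for Zfp985, -0.20 for Zfp984, -0.06 for Zfp534 and 0.26 for Zfp987, and of these 4 the groups of Zfp985 and Zfp984 did not overlap. Zfp600 was the most variable, with 21.3, 5.86 and 9.97 CPM within the wild type and a standard error of 0.55.

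**Figure D3:**
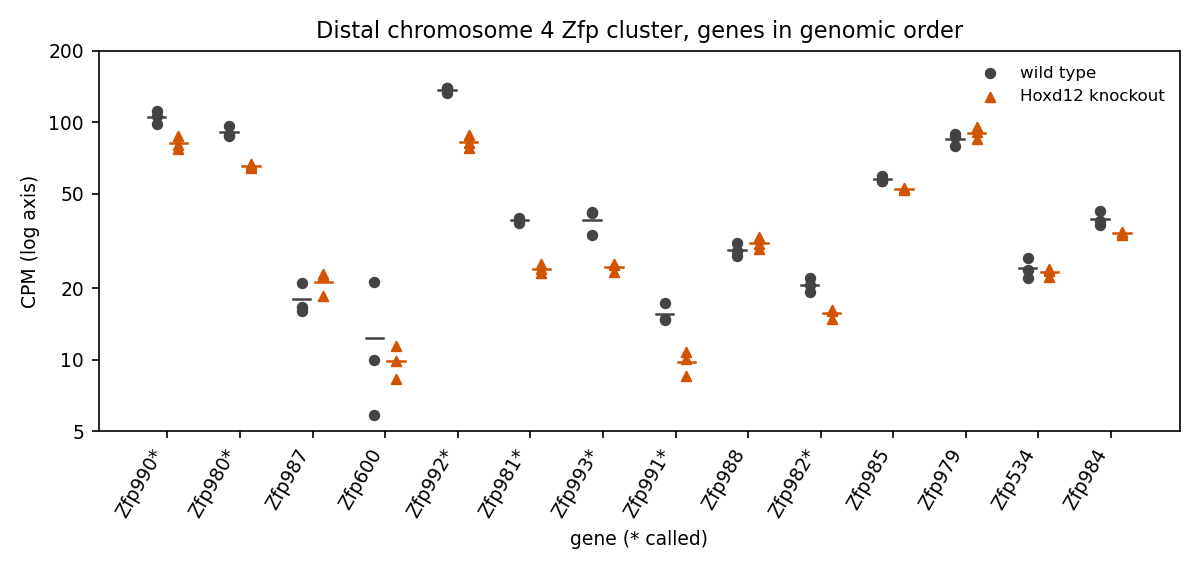
CPM (log axis) of the 14 members of the distal chromosome 4 cluster in genomic order, each point a library and each bar a group mean. Triangles (knockout) lie below circles (wild type) in the 7 genes marked as called, while in Zfp979 and Zfp988 the groups overlap.

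Near copies share reads, and the members of this cluster can be told apart only in part. The share of a gene's 50-base words that also occur in transcripts of other genes ranged from 11.9% for Zfp982 to 89% for Zfp987, with a median of 61.3%. Among the genes that fell it was 86.8% for Zfp993, 82.2% for Zfp991, 71.3% for Zfp980, 43% for Zfp992, 40% for Zfp981 and 29.1% for Zfp990. Values of the single genes with high shares are uncertain, since the authors' quantification may have split their reads. Summed over the 14 members, whatever the split among them, the level was 569, 578 and 552 CPM in the knockout and 720, 714 and 704 CPM in the wild type. The knockout sums were all lower, with a log2 ratio of the means of -0.33. The cluster was singled out because its members fell, so this sum is a description and not a test. Over all 88 annotated genes of the interval the ratio was -0.34, from 981 ± 9.08 to 777 ± 12 CPM (SD, n = 3 each). Over the 4 members that share under 30% of their words it was smaller, -0.16, from 268 ± 7.33 to 240 ± 10.1 CPM, and these groups did not overlap either.

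Other genes inside the cluster also fell. Of 15 tested genes there that are no members, 9 fell and 1 rose, and of the 109 within 5 Mb outside, 13 rose and 13 fell. Of the 5 of these 15 that code for 3 or more fingers, 4 fell. How many reads the 15 genes share with the members is not known here, so their falls may not be separate observations. Rex2 had 45.3, 46.5 and 39.9 CPM against 76.1, 87.1 and 90.1 CPM (log2 fold change -0.95, adjusted p = 2.30e-11), and Gm13212 had 15.8, 19.9 and 18.3 CPM against 32.8, 32.2 and 29.9 CPM (log2 fold change -0.82, adjusted p = 9.47e-07). Zfp989 and Zfp978, both below the count limit, had log2 fold changes of -1.38 and -1.32 at 0.64 to 2.93 CPM (adjusted p 0.0279 and 0.0327). Each of these 2 calls was lost without any 1 of 5 libraries. Zfp933 had 0.06 and was not called, and the pseudogene Gm13237 rose by 0.43 (99.6, 94.5 and 107 CPM against 71.8, 77.8 and 73.7 CPM). The antisense gene 4933438K21Rik fell by 2.23 on the log2 scale, from 15.6 ± 0.509 CPM to 3.28 ± 0.783 CPM (SD, n = 3 each). It was singled out after its values were seen, and whether reads were counted by strand is not known here.

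**Figure D4:**
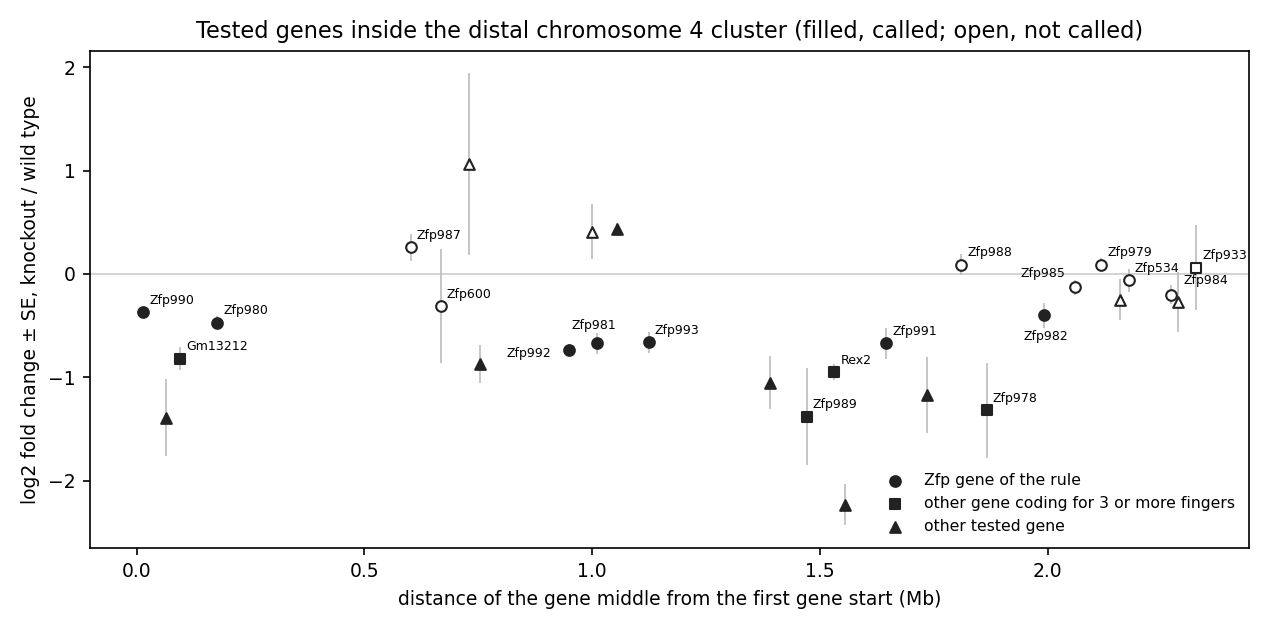
Log2 fold change ± SE of every tested gene inside the distal chromosome 4 cluster, against the distance of the gene's middle from the first gene start (Mb). Circles are members, squares other genes coding for 3 or more fingers and triangles other tested genes, filled where called. Filled points below 0 lie along most of the cluster, and 5 of the 7 members nearest its far end are open.

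The chromosome 6 cluster (chr6:47819266-48623227) has 9 annotated Zfp genes and 6 members, of which 4 rose and 0 fell, with a median log2 fold change of 0.33. Zfp282 (ENSMUSG00000025821, chr6:47877204-47908485), a KRAB gene, had 17.6, 16.4 and 21.1 CPM in the knockout and 12.4, 13.2 and 13.8 CPM in the wild type. It rose by 0.49 ± 0.14 (adjusted p = 0.00726), and without knockout replicate 3 the adjusted p was 0.076. Zfp956 (ENSMUSG00000045466, chr6:47953390-47965300) had 12.3, 14.9 and 14.3 CPM against 8.73, 10.9 and 9.45 CPM, a rise of 0.51 ± 0.16 (adjusted p = 0.0153). Leaving out any 1 of 4 libraries ended this call (knockout replicates 2 and 3, wild-type replicates 1 and 3, adjusted p 0.0508 to 0.0693).

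Zfp746 (ENSMUSG00000057691, chr6:48062395-48086593), whose product PARIS is a repressor degraded through parkin, had 30.6, 31.2 and 26.8 CPM against 21.7, 24.6 and 20.6 CPM. It rose by 0.40 ± 0.11 (adjusted p = 0.00642). Zfp777 had 43.9, 42.2 and 52 CPM against 37.4, 37.9 and 40.2 CPM (log2 fold change 0.26, adjusted p = 0.0257), and its call was lost without knockout replicate 3 (adjusted p = 0.241) or wild-type replicate 1 or 2 (adjusted p 0.0882 and 0.0846). Zfp212 and Zfp775 had log2 fold changes of 0.23 and 0.22 and were not called, although their groups did not overlap. Without knockout replicate 3 the count of members called higher in the cluster was 1, without wild-type replicate 1 it was 2, and DESeq2 called 0, with adjusted p of 0.0544 for Zfp746 and 0.0646 for Zfp282. Summed over the 6 members the level was 147, 153 and 162 CPM against 119, 127 and 124 CPM (log2 ratio 0.32). This cluster was singled out for its rises, so its sum is a description too. These genes share at most 6.54% of their words with other genes. Of 8 other tested genes inside the cluster 5 rose and 1 fell, among them the zinc finger genes Zfp467 (0.84, adjusted p = 0.0257) and Repin1 (0.51, adjusted p = 0.0104), of which the first averages 27 counts. Zfp467 was not called without knockout replicate 1 (adjusted p = 0.0581) or 3 (0.136), without wild-type replicate 3 (0.165) or with DESeq2 (0.107), and Repin1 not without knockout replicate 3 (0.0689) or with DESeq2 (0.0762).

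The surroundings of the chromosome 6 cluster were shifted in the same direction. The 584 other tested genes of chromosome 6 had a median log2 fold change of 0.15, with 30% called higher and 8.05% lower, and the 30 outside the cluster within 5 Mb a median of 0.22. Over chromosome 6 as a whole, 7 of 11 members rose, 0 fell and all 11 lay above 0. Besides the cluster these were Zfp239, Zfp638 and Zfp384, which encodes a DNA-binding factor and had 44.7, 43.1 and 46.3 CPM against 38.6, 36.6 and 34 CPM (log2 fold change 0.30, adjusted p = 0.00859). That call was lost without wild-type replicate 3 (adjusted p = 0.0602) and with DESeq2 (adjusted p = 0.0812). Taken relative to the chromosome's median, the log2 difference was 0.63 for Zfp239, 0.36 for Zfp638, 0.35 for Zfp956, 0.34 for Zfp282, 0.25 for Zfp746, 0.14 for Zfp384 and 0.11 for Zfp777. Relative to the tested genes within 5 Mb, the 4 called members of the cluster had 0.28 (Zfp956), 0.26 (Zfp282), 0.17 (Zfp746) and 0.03 (Zfp777).

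**Figure D5:**
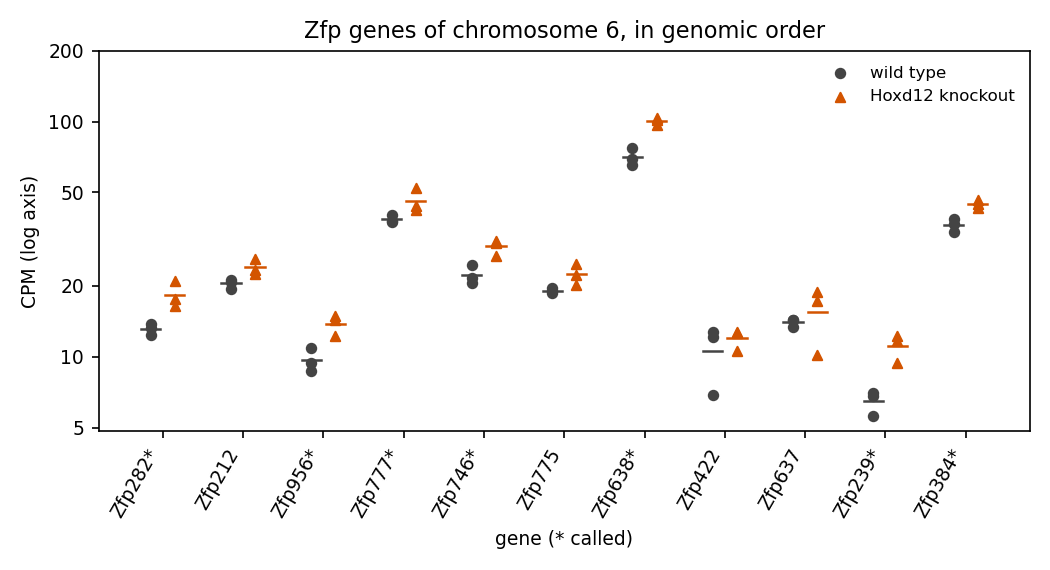
CPM (log axis) of the 11 members of chromosome 6 in genomic order, each point a library and each bar a group mean. Knockout triangles lie above wild-type circles in all but Zfp422 and Zfp637, where the groups overlap.

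Chromosome 8 was shifted likewise, with a median of 0.16 over 685 other genes, 30.1% of them higher. Of its 12 members 4 rose and 0 fell, with a median of 0.31. These were Zfp330, Zfp1 (0.37, adjusted p = 0.0204), Zfp821 (0.34, adjusted p = 0.0389) and Zfp961 (0.31), while Zfp90 had -0.20 and was not called. Zfp330 kept its call without any 1 library. Zfp1 lost it when any 1 of 4 libraries was left out (knockout replicates 1 and 3, wild-type replicates 2 and 3, adjusted p 0.0538 to 0.104), and Zfp821 kept it only in the absence of wild-type replicate 3 (adjusted p 0.0523 to 0.201 otherwise). The chromosome 8 cluster of Zfp866, Zfp930 and Zfp868 had 0 called members and a median of 0.30. There Zfp866 had 13.6, 12.3 and 15.4 CPM against 8.56, 10.9 and 12.2 CPM (adjusted p = 0.0714), and Zfp930 19.7, 18.3 and 18.8 CPM against 14.7, 16 and 15.5 CPM (adjusted p = 0.0769). On chromosome 11 the other 1037 genes were shifted down, with a median of -0.12 and 28.2% called lower, and 0 of the 5 members fell. Zfp652 of that chromosome rose, with 35.2, 37.6 and 35.3 CPM against 26.7, 26.1 and 31.8 CPM (log2 fold change 0.35, adjusted p = 0.0083), a call lost without wild-type replicate 2 (adjusted p = 0.0543). Outside chromosomes 6, 8 and 11, 14 of 127 members rose and 18 fell, with a median of 0.04. Relative to the other genes of each member's own chromosome, the median of the members was 0.07.

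On chromosome 7, single genes of a cluster fell and their neighbours mostly did not pass the test. Zfp428 stood in a cluster with Zfp574, Zfp61 and Zfp180, and Zfp180 had 13.1, 12.9 and 14.9 CPM against 12.4, 11.9 and 11.2 CPM (log2 fold change 0.21, adjusted p = 0.316). Zfp60 stood beside Zfp850 and Zfp59, and Zfp59 had 13.8, 11.2 and 9.7 CPM against 8.56, 6.68 and 11.3 CPM (log2 fold change 0.38, adjusted p = 0.132). Zfp850 had 0.02, so neither neighbour of Zfp60 passed the test, and 52.4% of the words of Zfp59 also occur in other genes. In the cluster of Zfp260, Zfp940, Zfp568 and Zfp566, Zfp940 fell from 26.3 to 20.3 CPM on average (log2 fold change -0.37, adjusted p = 0.0128). That call was lost without wild-type replicate 1 (adjusted p = 0.0663) and with DESeq2 (adjusted p = 0.0818).

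In the cluster of Zfp771 and Zfp553, both passed the test in opposite directions. Zfp771 had 21.8, 30.3 and 25.7 CPM against 40.3, 38.4 and 41.4 CPM (log2 fold change -0.64, adjusted p = 1.81e-05), and Zfp553 had 77.8, 71.8 and 75 CPM against 63.6, 58 and 56 CPM (0.34, adjusted p = 3.32e-04). The whole cluster is 0.653 Mb long. In the cluster of Zfp819, Zfp936, Zfp975, Zfp976 and Zfp141, Zfp975 had 11.8, 11.3 and 11.1 CPM against 15.9, 16.8 and 14.1 CPM (log2 fold change -0.45, adjusted p = 0.0191). This call was lost without knockout replicate 3 (adjusted p = 0.0656) or wild-type replicate 2 (adjusted p = 0.0963) and with DESeq2 (adjusted p = 0.114). Zfp819 had a log2 fold change of 0.28 (adjusted p = 0.244). The pair of clusters near the chromosome's start had 0 called members: Zfp628 (0.19) and Zfp865 (0.09) in one, Zfp787 (0.31, adjusted p = 0.0542) and Zfp444 (-0.11) in the other.

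Among the clusters of other chromosomes, that of chromosome 9 had 1 call, Zfp846, at 8.48, 9.45 and 11.2 CPM against 13.4, 15.5 and 15.3 CPM (log2 fold change -0.60, adjusted p = 0.00411). Its mean effective length was 4260 bases in the knockout and 5910 bases in the wild type, and the mean level per length was 2.17 TPM in both groups. On log2(TPM + 1) its adjusted p was 0.988, so the call holds only for counts that are not scaled by length. Zfp266 beside it had a log2 fold change of 0.26 (adjusted p = 0.173). On chromosome 15, Zfp7 had 37.8, 33.5 and 40.5 CPM against 30.6, 29.2 and 33.3 CPM (log2 fold change 0.27, adjusted p = 0.0375). This call was lost when any 1 of 4 libraries was left out (knockout replicates 1 and 3, wild-type replicates 1 and 2, adjusted p 0.0906 to 0.189). Zfp623 had 0.37 (adjusted p = 0.111).

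On chromosome 17, Zfp229 fell as given above, and Zfp13 in the same cluster had a log2 fold change of -0.26 (adjusted p = 0.0822). The second cluster of that chromosome held Zfp870 (-0.32, adjusted p = 0.0718) and Zfp414 (-0.10, adjusted p = 0.421). On chromosome 13, Zfp65 (0.30, adjusted p = 0.266) and Zfp459 (-0.13, adjusted p = 0.538) were the members with the smallest p of a cluster with 0 calls. The chromosome 18 cluster of Zfp397, Zfp24 and Zfp35 likewise had 0 calls, with log2 fold changes of 0.14 for Zfp24 and -0.14 for Zfp35.

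Of the members known to act on imprints and retroelements, Zfp638 (above), Zfp445 and, narrowly, Zfp57 rose, and Zfp568 and Zfp809 did not pass the test. Zfp57, which binds methylated imprint control regions, had 315, 316 and 303 CPM in the knockout and 290, 284 and 288 CPM in the wild type. All knockout values were higher, by 0.12 ± 0.04 on the log2 scale (adjusted p = 0.0465). The call did not hold when any 1 library other than knockout replicate 3 was left out (adjusted p 0.0792 to 0.147) or with DESeq2 (adjusted p = 0.164). Zfp445, which also keeps imprints, had 26.1, 28.7 and 26.3 CPM against 23.1, 21.5 and 19.4 CPM (log2 fold change 0.34, adjusted p = 0.0211). Without knockout replicate 2 (adjusted p = 0.0724) or wild-type replicate 3 (adjusted p = 0.118), or with DESeq2 (adjusted p = 0.128), it was not called. Zfp568, a repressor of a placental Igf2 transcript, had 59.7, 56 and 61.1 CPM against 56.2, 48.9 and 49.2 CPM (log2 fold change 0.20, adjusted p = 0.0511). Zfp809, which silences retroviruses through their primer binding site, had 11.4, 13.8 and 12.2 CPM against 15, 16.4 and 15.1 CPM (log2 fold change -0.33, adjusted p = 0.089). Neither passed the test, although the groups of Zfp809 did not overlap.

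Of the members with other well known roles, Zfp217, a co-repressor subunit, had 25.3, 26.5 and 29.9 CPM against 21.1, 22.6 and 22 CPM (log2 fold change 0.31, adjusted p = 0.0324). Zfp462, which acts in heterochromatin at lineage genes, had 25.8, 25 and 21.7 CPM against 21.3, 15 and 18.9 CPM (0.39, adjusted p = 0.0201). Zfp961 had 41.8, 37.1 and 36.6 CPM against 27.9, 31.9 and 33.2 CPM (0.31, adjusted p = 0.0147). Each of these 3 calls was lost without at least 2 single libraries. Zfp217 was not called without knockout replicate 3 (adjusted p = 0.172) or any 1 wild-type library (0.0523 to 0.102), Zfp462 without knockout replicate 1 or 2 (0.104 and 0.0567) or wild-type replicate 2 (0.168), and Zfp961 without knockout replicate 1 (0.113) or wild-type replicate 1 (0.0917). The mean effective length of Zfp462 was 10328 bases in the knockout and 8727 bases in the wild type, and on log2(TPM + 1) its change was 0.15 (adjusted p = 0.518).

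A further 8 genes with known roles did not pass the test. Zfp281, a regulator of pluripotency exit, had 34.7, 38.9 and 41.3 CPM against 42.8, 39.4 and 40 CPM, and Zfp207, a spindle and splicing factor, 122, 122 and 137 CPM against 131, 137 and 128 CPM. Their log2 fold changes were -0.09 and -0.05, with overlapping groups. The promoter-binding factors Zfp143 and Zfp148 had 0.02 and -0.07. The SUMO ligase Zfp451 had 0.26 (adjusted p = 0.0798), the ubiquitin ligase Zfp91 -0.16, the elongation factor subunit Zfp326 0.21 and the transcription regulator Zfp335 -0.02.

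By protein features, the 65 members with a KRAB box by either pattern included 7 that rose (10.8%) and 13 that fell (20%), with a median log2 fold change of 0.00. The 90 that matched neither pattern included 19 that rose (21.1%) and 5 that fell (5.56%), with a median of 0.14. A pattern can miss a box, so some of these 90 may carry one. The background for these shares is 15.1% higher and 16.6% lower among genes at the same count limit. The chromosome 4 cluster accounts for 7 of the 13 KRAB genes that fell. Outside it, 7 of 51 KRAB members rose (13.7%) and 6 fell (11.8%), and the median was 0.04. The box was first sought by a narrow pattern, which found 32 members, 1 higher and 4 lower, and missed the chromosome 4 boxes. Of the 70 members with 10 or more fingers 7 rose and 11 fell, 25.7% in all, and of the 83 with 1 to 9 fingers 18 rose and 7 fell, 30.1% in all, both near the backgrounds of 26.5% and 31.7%. Among the 31 members that share at least 10% of their words with other genes, 2 rose (6.45%) and 10 fell (32.3%), and among the 124 others 24 rose (19.4%) and 8 fell (6.45%). The chromosome 4 genes are 14 of the 31. Of the 17 others 2 rose (11.8%) and 3 fell (17.6%), with a median of -0.03. The 11 rises on chromosomes 6 and 8, where other genes were shifted up as well, were not set apart in these comparisons.

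The partner proteins of KRAB zinc fingers were compared as a list of 32 co-repressor genes, all tested. Of these 8 rose and 3 fell, 34.4% called beside backgrounds of 26.5% of all tested genes and 31.7% of autosomal protein-coding genes with at least 50 counts, with a median log2 fold change of 0.02. Trim28, the scaffold itself, had 1206, 1217 and 1209 CPM in the knockout and 1446, 1484 and 1472 CPM in the wild type. It fell in every knockout library by 0.28 ± 0.04 on the log2 scale (adjusted p = 5.36e-06). Setdb1, the histone methyltransferase it recruits, had 65.1, 59.4 and 67.7 CPM against 62.7, 57.3 and 55.5 CPM (log2 fold change 0.14, adjusted p = 0.183). Dnmt3b, a de novo DNA methyltransferase, had 20.5, 20.4 and 18.9 CPM against 34.2, 32.1 and 29.9 CPM, a fall of 0.69 ± 0.11 (adjusted p = 8.13e-06). Dnmt1, the maintenance methyltransferase, rose from 135 ± 9.62 to 161 ± 12.7 CPM (SD, n = 3 each), by 0.25 ± 0.06 on the log2 scale (adjusted p = 0.00171). Suv39h1, another histone methyltransferase, had 33.5, 30.8 and 30.9 CPM against 22.5, 27 and 19.6 CPM (log2 fold change 0.46, adjusted p = 0.00219). DESeq2 called 4 of the list higher and 2 lower. With edgeR the list had 6 calls in the absence of wild-type replicate 3 and 7 in the absence of either group's replicate 1.

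Zinc finger genes with other symbols were counted beside the Zfp genes, at the same limit of 50 counts. Of 17 Zbtb genes, which pair fingers with a BTB domain, 2 rose and 1 fell. Of 4 Zscan genes 1 rose, and of 4 Zkscan genes 0 were called. Together 4 of 25 were called, 16% beside backgrounds of 26.5% of all tested genes and 31.7% at this limit, with a median log2 fold change of 0.03. The called genes were Zbtb12 (0.72), Zbtb14 (0.57), Zscan26 (0.52) and Zbtb45 (-0.27). The call of Zscan26 was lost without knockout replicate 1 (adjusted p = 0.0533) and with DESeq2 (adjusted p = 0.0509). That of Zbtb45 was lost when any 1 of 4 libraries was left out (knockout replicates 1 and 2, wild-type replicates 2 and 3, adjusted p 0.056 to 0.122), with DESeq2 (adjusted p = 0.121) and with effective length as an offset (adjusted p = 0.872). Of the 200 Zfp genes below the limit, 137 were tested, and 5 rose and 8 fell. That is 9.49% of those tested, beside 11.7% of the 2883 tested autosomal protein-coding genes below the same limit.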

How the data were processed

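Polyadenylated RNA of 3 Hoxd12-/- and 3 wild-type libraries was analysed, grouped by the sample titles. Per the file headers, the deposited tables hold expected counts (estimated counts, not normalized), TPM and FPKM values scaled by length and library size by the authors, and the length and effective length of each gene. Bowtie 0.12.2 is named in the submitters' processing notes. The builds mm8 and mm10 are named there too, without a role. Which quantifier and annotation were used, and whether strand was, is not known here. All 55450 identifiers matched GENCODE M21, which gave symbols and GRCm38 coordinates. FPKM and length were not used.

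Expected counts were rounded. The main test was edgeR 4.0.16 (R 4.3.3) with TMM scaling, filterByExpr, robust dispersions and a quasi-likelihood fit over all genes. P-values were adjusted by Benjamini-Hochberg over the 12891 genes that passed the filter and called below 0.05. CPM values use the TMM-scaled library sizes. The common biological coefficient of variation was 6.74%. No pair of libraries of a group agreed within sampling noise, and each was treated as 1 replicate. This does not show that the libraries come from separate cultures or clones. Alternatives were DESeq2 1.42.0, limma 3.58.1 on log2 TPM with 1 or 0.1 added, other scalings, filters and limits, and each library left out. The count model was tested on simulated data.

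Fingers were counted by the spacing of their C2H2 residues, and KRAB boxes by 2 patterns, in proteins translated from GENCODE M21. The second pattern was added after seeing the data. The members, lists and rules were chosen with earlier results of these data known. Named are the 8 largest called rises and falls with groups that do not overlap, the 2 smallest p in each cluster, genes with known roles, those at the count limit, the 5 highest in TPM, and co-repressor genes. Genes named beyond this are the other members of the chromosome 4, 6, 8 and 11 groups, Zfp850, genes inside the chromosome 4 and 6 clusters and the called genes with other symbols. They were chosen after their values were seen.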

Additional observations from a re-analysis of the deposited data

How the results depend on the processing

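The number of called members was 44, and 43 to 44 with RLE scaling, without a count filter, with a filter of 1 CPM in 3 libraries and with a replicate block. Same-numbered libraries did not deviate together over all tested genes (correlations of 0.00359, 0.0413 and 0.0244). Whether they share a culture or preparation is not known here. With the replicate block the chromosome 4 median was -0.32, the call of Zfp57 was lost (adjusted p = 0.0545) and Zfp787 was called (adjusted p = 0.0497), with no other call among members changed. Called members were 33 with the length offset, 21 with DESeq2 (8 higher), 26 with limma on TPM at either pseudocount (17 higher, 9 lower), and 16 against a 1.2-fold change (5 higher, 11 lower). Leaving out 1 library gave 33 to 39 called, 17 to 22 higher and 15 to 17 lower. By subset, 5 members with the narrow KRAB pattern were called (1 higher, 4 lower), 20 with either pattern (7 higher), 14 higher outside chromosomes 6, 8 and 11, 11 lower outside the chromosome 4 cluster and 8 lower among members with few shared words. The median log2 fold change of 0.09 was 0.08 with the length offset, 0.15 and 0.18 on the 2 TPM scales, where the median of all genes was 0.10 and 0.11 against 0.02, and 0.05 to 0.10 without 1 library. By subset it was 0.04 outside chromosomes 6, 8 and 11, 0.04 for the narrow and 0.00 for either KRAB pattern, 0.11 outside the chromosome 4 cluster and 0.14 with few shared words. Relative to genes within 5 Mb it was 0.08.

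The chromosome 4 cluster kept a negative median in each of these: -0.35 with DESeq2, -0.31 with the length offset, -0.17 on log2(TPM + 1) and -0.39 to -0.28 without 1 library. It had 6 or 7 calls without 1 library and 3 on log2(TPM + 1). In the chromosome 6 cluster calls were 0 with DESeq2, 2 on log2(TPM + 1) and 1 to 4 without 1 library, while the median was 0.30 to 0.39. Co-repressor calls were 11, and 7 with the length offset, 1 against a 1.2-fold change, 6 with DESeq2, 4 on both TPM scales and 6 to 12 without 1 library. Zinc finger genes with other symbols had 4 calls, 1 against a 1.2-fold change, 2 with DESeq2 and on both TPM scales, and 2 to 6 without 1 library. The cause of these differences was not tested. Below 100 counts a median standard error of 0.16 limits what can be called. The summed CPM of the chromosome 4 members, chosen after seeing the data, gave -0.33.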
